A study of Mus musculus with 10 samples.

Results

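The respiratory chain members are the 90 of 23284 gene rows of the count table whose symbol begins with Nduf followed by a, b, c, s or v, equals Sdha, Sdhb, Sdhc or Sdhd, or begins with Uqcr, Cox4 to Cox8 or Atp5. The rule reads symbols and no measured value, though the gene family was taken up with earlier results of these data known. By known role, 83 of them encode subunits: 36 of complex I, 4 of complex II, 8 of complex III, 20 of complex IV and 15 of complex V. Another 4 (Ndufaf1 to Ndufaf4) encode assembly factors of complex I. The remaining 3 (Cox4nb, Atp5s and Atp5sl) fall under the rule by their symbols and encode no subunit of a chain complex.

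RNA was sequenced from 3 populations of sorted endothelial cells of C57BL/6 (B6) mice aged 6-8 weeks, for which no treatment or altered allele is named. They are the lymphatic endothelium of pooled lymph nodes (LN-LEC, 4 libraries), the blood endothelium of pooled lymph nodes (LN-BEC, 3 libraries) and the lymphatic endothelium of diaphragm (D-LEC, 3 libraries). CD45-depleted cells were sorted on CD31 and podoplanin, and each library came from a pool of mice and from amplified RNA, so that spread and p-values describe pools and not single animals. The labels give no batch, day or pairing. Levels are fragment counts divided by DESeq2 size factors (normalized counts).

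Mitochondria make most of the ATP of a resting cell through these complexes. Complex I (NADH dehydrogenase) and complex II (succinate dehydrogenase) pass electrons to ubiquinone, complex III passes them on to cytochrome c, complex IV (cytochrome c oxidase) reduces oxygen, and complex V (ATP synthase) uses the resulting proton gradient. Subunits of each complex are needed in fixed proportions. Several nuclear subunits of complex IV also exist as tissue isoforms, among them forms of heart and skeletal muscle and forms induced by low oxygen, and endothelial cells are known to rely strongly on glycolysis. The subunits encoded by mitochondrial DNA do not fall under the rule.

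The sorted populations carried the markers of their labels. The summed level of 6 lymphatic markers, among them Prox1 and Lyve1, was 134700 to 151700 in LN-LEC, 598900 to 623000 in D-LEC and 3240 to 10200 in LN-BEC. That of 6 blood endothelial markers was 76940 to 78930 in LN-BEC and at most 1828 in the other libraries. Libraries held 22429940 to 48906070 fragments, and LN-BEC replicate 3 and LN-LEC replicate 4 stood apart from the others of their population. Of the 90 members, 87 had a mean normalized count of at least 1 in some population and were tested. A gene was called differentially expressed at an adjusted p under 0.05 in edgeR's quasi-likelihood test, with Benjamini-Hochberg adjustment over 15321 genes. Since the 3 comparisons share libraries, a population that differs from both others gives calls that are not independent.

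The chain was expressed at similar summed levels in all 3 populations, and few members differed by much. Summed over the 83 subunits, the level per kilobase of exon was 308100 to 323300 in D-LEC, 305900 to 359700 in LN-BEC and 344600 to 375400 in LN-LEC. Every LN-LEC library lay above every D-LEC library, and LN-BEC overlapped both. These sums, and those by complex, do not include the per-library correction for gene length that is given below for the medians. For complex IV the LN-LEC libraries, at 122000 to 129500, did not overlap those of LN-BEC, at 102300 to 121400, or D-LEC, at 101700 to 107900. Complex II had its highest mean in D-LEC, at 5897 ± 403 (SD, n = 3) against 5278 ± 357 (n = 4) in LN-LEC and 4872 ± 422 (n = 3) in LN-BEC, and its D-LEC and LN-LEC ranges overlapped. In a bulk sample, less RNA per cell and fewer cells of a type cannot be told apart.

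**Figure D1:**
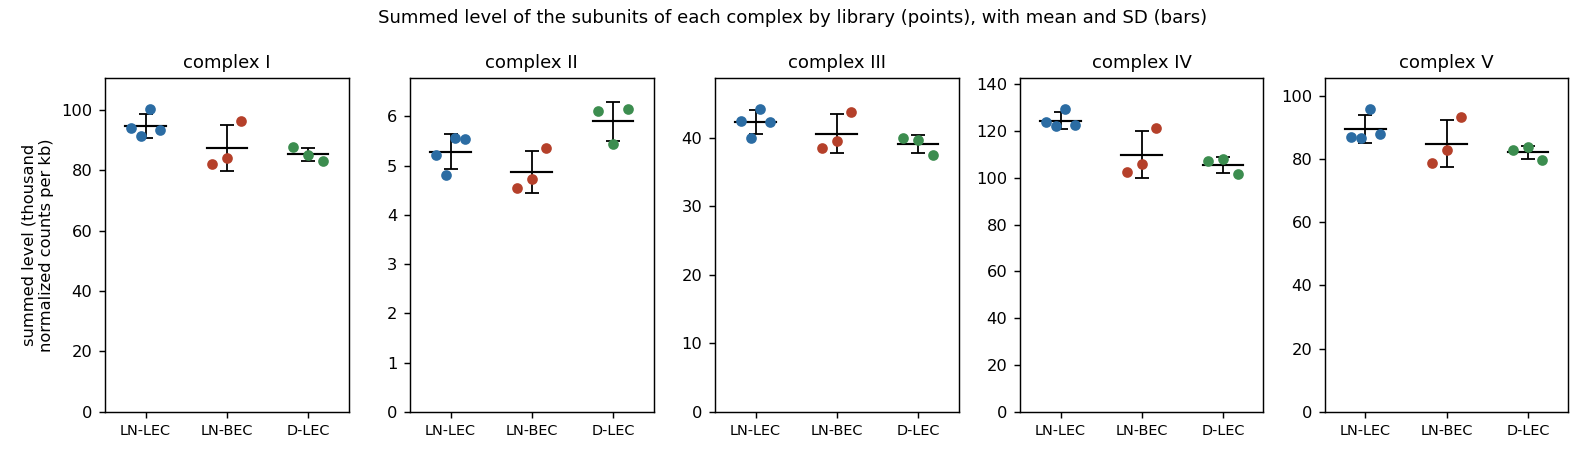
Summed level of the subunits of each complex in each library, in units of 1000 normalized counts per kilobase of exon (y axis from 0), by population. Points are libraries and bars are mean and SD. LN-LEC libraries are the highest for complex IV, D-LEC has the highest mean for complex II, and 1 LN-BEC library (replicate 3) lies near LN-LEC in complexes I, III, IV and V.

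Between LN-LEC and D-LEC, 34 of 87 members were called (39.1%), 22 higher in LN-LEC against 12 in D-LEC. Over all genes tested 45.8% were called, 24.1% higher in LN-LEC against 21.7% in D-LEC. The median log2 difference of the members was 0.13, against 0.03 over all genes. For the subunits alone the median was 0.14, and 0.03 with an added per-library correction for gene length, near the 0.02 of all genes under that correction. With it, the members called were 17 higher in LN-LEC against 15 in D-LEC. The number higher in D-LEC was 7 without LN-LEC replicate 1 and 6 without D-LEC replicate 3.

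Between LN-LEC and LN-BEC, 24 members were called (27.6%), 20 higher in LN-LEC against 4 in LN-BEC. The background was 38.2%, with 19.8% higher in LN-LEC against 18.4% in LN-BEC. The median log2 difference was 0.14 for the members and -0.01 for all genes. With the length correction the split was 15 to 7. Without LN-BEC replicate 1 or LN-BEC replicate 2, 14 and 15 members were called, 10 of them higher in LN-LEC in each case, and 11 were higher in LN-LEC without LN-LEC replicate 3.

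In D-LEC against LN-BEC, 25 members were called (28.7%), 14 higher in D-LEC against 11 in LN-BEC. The background was 48.1%, with 22.5% higher in D-LEC against 25.6% in LN-BEC. The medians were 0.02 for the members and -0.05 for all genes. Without LN-BEC replicate 1, LN-BEC replicate 2 or D-LEC replicate 1, 8 members were higher in D-LEC. With all libraries in the edgeR fit, the share of members called was below that of all genes in each of the 3 comparisons. Without both LN-BEC replicate 3 and LN-LEC replicate 4, an alternative chosen after seeing the data, the shares for LN-LEC against LN-BEC were 35.6% of members and 35.3% of all genes.

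The differences of the members were also small beside those of other well counted genes. Among the 80 members with a mean over 100 in each population, the median absolute log2 difference of LN-LEC from D-LEC was 0.19, and 1.25% were called with a difference over 2-fold. Among all 9054 genes with such means these values were 0.31 and 14.1%. Between D-LEC and LN-BEC, 1.25% of the 80 members and 16.7% of the 9054 genes passed 2-fold, and between LN-LEC and LN-BEC 0% and 13.1%.

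**Figure D2:**
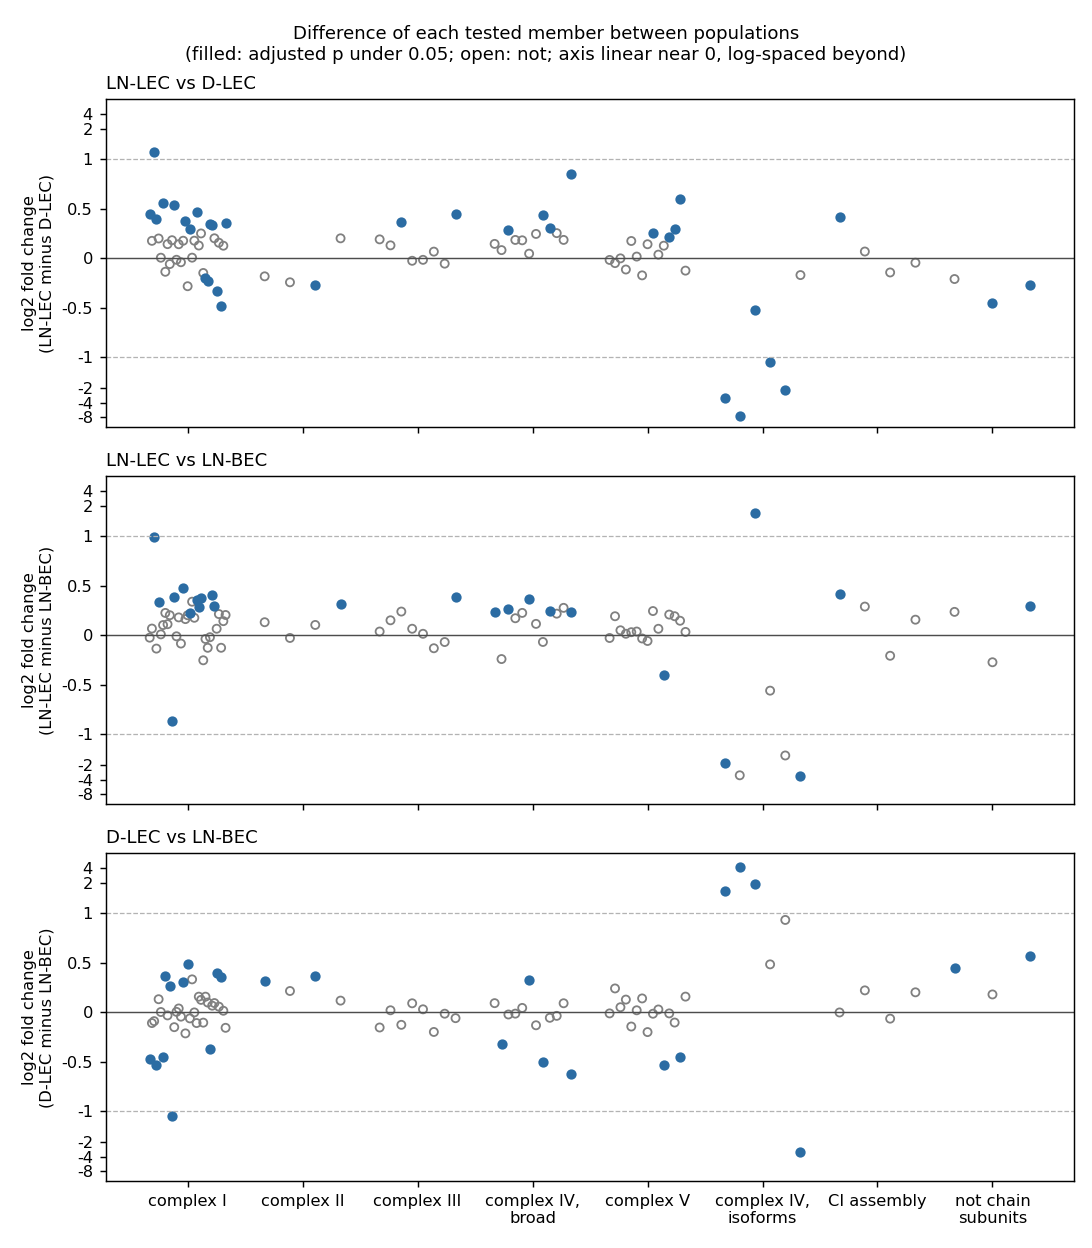
Log2 fold change (y axis, linear near 0 and log-spaced beyond 1.2) of each tested member in the 3 comparisons, grouped by complex, with the tissue isoforms of complex IV apart; filled points had an adjusted p under 0.05 and dashed lines mark a 2-fold difference. Most subunits lie within the dashed lines, and most of the isoforms lie beyond them.

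Complex I takes electrons from NADH through a matrix arm and pumps protons through a membrane arm. Of its 35 tested subunits, 11 were higher in LN-LEC against 4 in D-LEC. Against LN-BEC, 10 were higher in LN-LEC and 1 lower. In D-LEC against LN-BEC, 6 were higher in D-LEC against 5 in LN-BEC. The shares called were 42.9% in LN-LEC against D-LEC, 31.4% in LN-LEC against LN-BEC and 31.4% in D-LEC against LN-BEC. Over all genes they were 45.8%, 38.2% and 48.1%.

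The largest difference among the broadly expressed subunits was that of Ndufa11, an accessory subunit of the membrane arm (mm9 chr17:56857185-56863671, plus strand). Its level was 5356, 5177, 5688 and 5388 normalized counts in the LN-LEC libraries. It was 2567, 2702 and 2983 in LN-BEC and 2485, 2840 and 2458 in D-LEC. LN-LEC libraries lay apart from both others, which overlapped each other. The log2 difference was 1.08 ± 0.09 (SE) against D-LEC (edgeR adjusted p = 2.7e-07) and 0.99 ± 0.09 against LN-BEC (edgeR adjusted p = 6.92e-07).

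Ndufa8, another membrane-arm accessory subunit (mm9 chr2:35891854-35904812, minus strand), was high in LN-BEC instead. Its level was 2581, 2880 and 3071 in LN-BEC, 1568, 1532, 1447 and 1643 in LN-LEC, and 1390, 1409 and 1351 in D-LEC. The log2 difference was -0.86 ± 0.08 for LN-LEC against LN-BEC (edgeR adjusted p = 1.44e-06) and -1.05 ± 0.09 for D-LEC against LN-BEC (edgeR adjusted p = 3.57e-07). The LN-LEC and D-LEC ranges did not overlap either, but that difference, 0.18 ± 0.08, was not called (edgeR adjusted p = 0.0902). The calls of Ndufa11 and Ndufa8 were kept under every alternative tried, and no 100-base exon window of either gene has a second exact copy in the mm9 genome.

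Promoters of the 2 genes are printed because they moved apart although both encode parts of one complex. They are RefSeq sequences on GRCm38.p6, a later build than that of the counts, running from 250 bases before to 50 after the start. The Ndufa11 promoter is chr17:56717512-56717811 on the plus strand and the Ndufa8 promoter chr2:36049289-36049588 on the minus strand. Capitals mark GCATGCGC, the core bound by nuclear respiratory factor 1 (NRF1), a regulator of many respiratory chain genes, read on both strands, and CAGCTG, an E-box that several muscle factors bind. In Ndufa11 the 2 NRF1 matches overlap on opposite strands.
Ndufa11: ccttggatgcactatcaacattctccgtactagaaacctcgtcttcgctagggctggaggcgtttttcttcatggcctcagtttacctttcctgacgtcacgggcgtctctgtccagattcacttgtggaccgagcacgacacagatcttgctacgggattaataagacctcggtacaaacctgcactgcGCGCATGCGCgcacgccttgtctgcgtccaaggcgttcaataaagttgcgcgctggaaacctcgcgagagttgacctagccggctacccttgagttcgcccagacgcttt
Ndufa8: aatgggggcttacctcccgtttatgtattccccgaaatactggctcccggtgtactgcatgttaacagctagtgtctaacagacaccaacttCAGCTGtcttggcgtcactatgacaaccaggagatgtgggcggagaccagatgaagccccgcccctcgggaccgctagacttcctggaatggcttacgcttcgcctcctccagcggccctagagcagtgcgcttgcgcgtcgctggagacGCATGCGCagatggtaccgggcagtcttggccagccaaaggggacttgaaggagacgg

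Of the 83 subunits, 68 matched a promoter in the RefSeq table. GCATGCGC stood in 10 of these 68 (14.7%), against 3.05% of the 27025 genes with a promoter. CCGGAAG, the core of GABP and other ETS factors, stood in 16 (23.5%), against 9.93%. ATGGCGG, bound by YY1, stood in 10 (14.7%), against 4.69%. TCAAGGTCA, the site of estrogen-related receptors, stood in 2 (2.94%), against 0.466%. CAGCTG stood in 6 (8.82%), against 18.3%, and TAAAAATA, a site of MEF2 muscle factors, in 0, against 3.09%. Both strands were searched, and a match describes letters only.

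The catalytic core of the matrix arm was not uniform. Ndufv1, which binds NADH, was at 1256, 1301 and 1306 in D-LEC, 883, 872, 889.9 and 983 in LN-LEC, and 923, 971 and 1110 in LN-BEC. All D-LEC libraries were above all others, with a log2 difference of -0.48 ± 0.09 for LN-LEC minus D-LEC (edgeR adjusted p = 0.0005) and of 0.36 ± 0.10 for D-LEC minus LN-BEC (edgeR adjusted p = 0.00682). Ndufs7, which carries the last iron-sulfur cluster before ubiquinone, was also higher in D-LEC, at 2476 ± 186 (n = 3), than in LN-LEC, at 1933 ± 123 (n = 4), and LN-BEC, at 1867 ± 255 (n = 3). Its edgeR adjusted p was 0.0128 and 0.0064, and the first rose to 0.0529 without D-LEC replicate 1.

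Ndufs3, another core subunit of the same arm, went the other way. It was at 1058, 1052 and 1073 in D-LEC, 1353, 1242, 1454 and 1275 in LN-LEC, and 1347, 1399 and 1341 in LN-BEC. D-LEC libraries were below all others (0.35 ± 0.08 for LN-LEC minus D-LEC, edgeR adjusted p = 0.00314, and -0.37 ± 0.09 for D-LEC minus LN-BEC, edgeR adjusted p = 0.00311). Of its 100-base exon windows 56.9% have another exact copy, and pairs with more than 1 mapped place were left uncounted. Ndufs1, a further core subunit, passed in D-LEC over LN-LEC with a log2 difference of -0.19 (LN-LEC minus D-LEC, edgeR adjusted p = 0.0482). Leaving out single libraries ended this call in 9 of 10 cases (adjusted p up to 0.115, without LN-LEC replicate 1). Ndufv2 and Ndufs8, also core subunits of this arm, were not called in any comparison.

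Accessory subunits of the matrix arm were higher in LN-LEC where they passed against D-LEC in the main edgeR test. Ndufa9, a subunit near the ubiquinone site, was at 3460 ± 366 (n = 4) in LN-LEC and 2417 ± 209 (n = 3) in D-LEC (0.54 ± 0.11, edgeR adjusted p = 0.00168). Ndufs4, which is lost in a form of Leigh syndrome, was at 2729, 2590, 2663 and 2760 in LN-LEC, above 2076, 1893 and 2166 in LN-BEC and 2279, 2086 and 2090 in D-LEC. Both of its differences were called (0.34 ± 0.08, edgeR adjusted p = 0.00246, against D-LEC and 0.41 ± 0.08, edgeR adjusted p = 0.000723, against LN-BEC). Ndufv3 and Ndufa12 were also higher in LN-LEC than D-LEC, by 0.36 ± 0.10 and 0.40 ± 0.12 (edgeR adjusted p = 0.00778 and 0.0119). Ndufa12 was at 570.1, 622 and 593 in D-LEC, below 780.0, 786 and 1013 in LN-BEC (-0.53 ± 0.12 for D-LEC minus LN-BEC, edgeR adjusted p = 0.00263), and 29.7% of its 100-base exon windows have another exact copy. Of the 9 accessory subunits of this arm, 0 were higher in D-LEC than LN-LEC by edgeR, by DESeq2 or at an unadjusted edgeR p under 0.05. With the length correction Ndufa7 and Ndufa5, whose means were higher in D-LEC, were called (edgeR adjusted p = 0.0274 and 0.0319).

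In the membrane arm, 6 of 19 tested subunits (31.6% called, against 45.8% of all genes) were higher in LN-LEC than D-LEC. By edgeR, by DESeq2 and at an unadjusted edgeR p under 0.05, 0 were lower. With the length correction Ndufb4, whose mean was lower in LN-LEC, was called (edgeR adjusted p = 0.0246). Beside Ndufa11, those higher in LN-LEC were Ndufa3 (0.56 ± 0.10, edgeR adjusted p = 0.000324), Ndufa1 (0.45 ± 0.11, 0.00465), Ndufb8 (0.47 ± 0.11, 0.00338), Ndufb3 (0.38 ± 0.09, 0.00428) and Ndufb5 (0.29 ± 0.08, 0.00911). Ndufa3, which had the highest level per kilobase of complex I, was at 2135, 1876 and 1832 in D-LEC, 2834, 2704, 3134 and 2628 in LN-LEC, and 2371, 2709 and 2892 in LN-BEC. Ndufa3 and Ndufa1 were also lower in D-LEC than in LN-BEC, with log2 differences of -0.45 ± 0.10 and -0.47 ± 0.12 (edgeR adjusted p = 0.00232 and 0.00459). Ndufb4 was higher in D-LEC, at 264, 254 and 216, than in LN-BEC, at 173, 153 and 196 (0.48 ± 0.16, edgeR adjusted p = 0.0223). That call was lost without LN-BEC replicate 1 (0.0533), LN-BEC replicate 2 (0.0835), D-LEC replicate 1 (0.0658) or D-LEC replicate 2 (0.0621), and 87.9% of its 100-base exon windows have another exact copy. Ndufb2 was higher in LN-LEC than LN-BEC (0.48 ± 0.10, edgeR adjusted p = 0.00153).

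Ndufs5, an accessory subunit, was at 0 in all 10 libraries, and was not tested. Of its exon bases on mm9, 95.1% are shared with the row of the clone symbol BC002163, and fragments that overlapped more than 1 gene were not counted. That row was at 906 to 1123 normalized counts in the 10 libraries. Among the assembly factors, Ndufaf1 was higher in LN-LEC than D-LEC (0.42 ± 0.15, edgeR adjusted p = 0.0325) and LN-BEC (0.42 ± 0.15, 0.038). These calls were lost in 3 and 5 of 10 cases when a library was left out, with adjusted p up to 0.12 without D-LEC replicate 2 and 0.123 without LN-BEC replicate 3. Ndufaf2, Ndufaf3 and Ndufaf4 were not called in the main edgeR test. For LN-LEC against LN-BEC, Ndufaf2 passed without LN-LEC replicate 4 (edgeR adjusted p = 0.0197) and Ndufaf3 with the length correction (0.0489). For D-LEC against LN-BEC, Ndufaf4 passed without LN-BEC replicate 3 and LN-LEC replicate 4 together (0.0211).

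**Figure D3:**
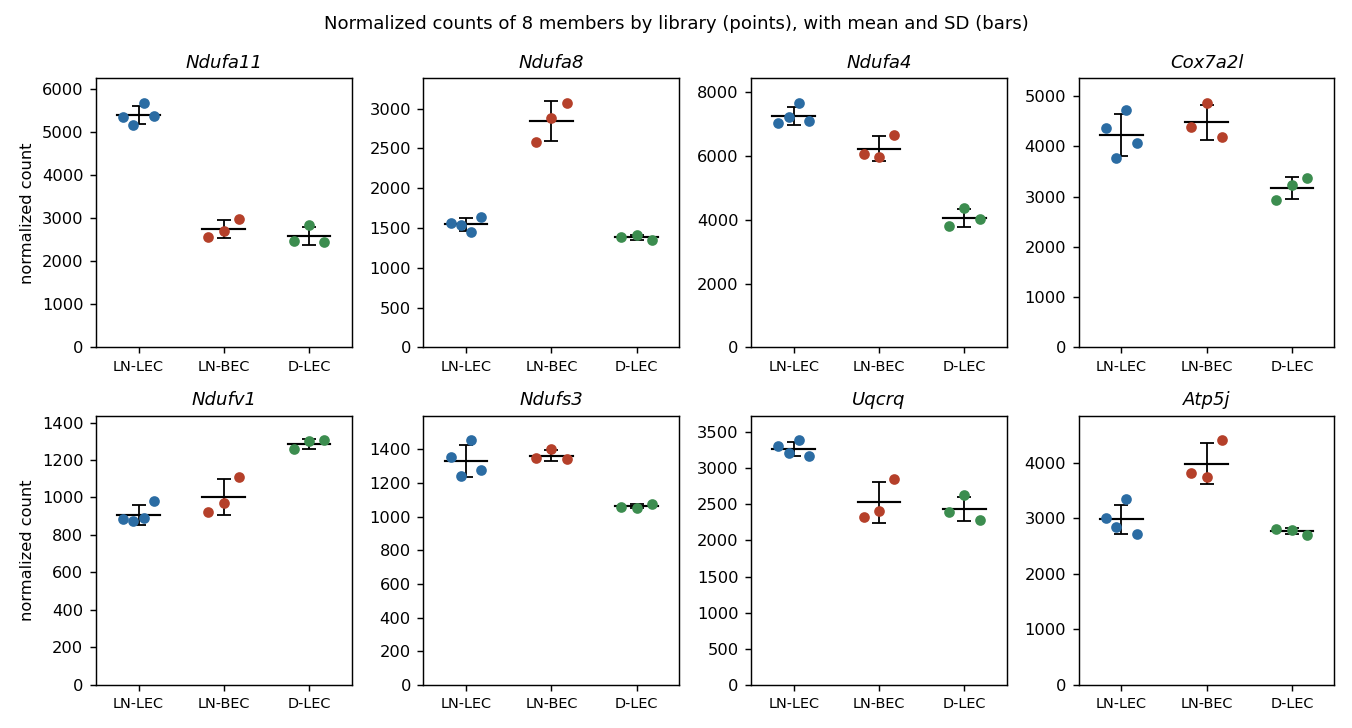
Normalized counts (y axes from 0) of 8 members in each library, with mean and SD as bars. Ndufa11 and Uqcrq are highest in LN-LEC, Ndufa8 and Atp5j in LN-BEC and Ndufv1 in D-LEC, and Ndufa4, Cox7a2l and Ndufs3 are lowest in D-LEC.

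Complex II has 4 subunits and also works in the tricarboxylic acid cycle. Sdha, the flavoprotein, was at 6107, 5597 and 6866 in D-LEC, 5051, 4940, 5433 and 6087 in LN-LEC, and 4926, 4852 and 5102 in LN-BEC. D-LEC lay above LN-BEC (0.31 ± 0.10, edgeR adjusted p = 0.0205), though the call was lost without D-LEC replicate 3 (0.0989), LN-BEC replicate 1 (0.0521) or LN-BEC replicate 2 (0.0547). Sdhc, a membrane anchor, was at 1686 ± 112 (n = 3) in D-LEC, 1381 ± 74.5 (n = 4) in LN-LEC and 1299 ± 182 (n = 3) in LN-BEC. It was higher in D-LEC than LN-BEC (0.37 ± 0.11, edgeR adjusted p = 0.0103) under every alternative. Its difference from LN-LEC (-0.27 ± 0.10 for LN-LEC minus D-LEC, edgeR adjusted p = 0.0404) was lost in 5 of 10 cases when a library was left out, with an adjusted p of 0.135 without D-LEC replicate 3. Sdhd, the other anchor, was higher in LN-LEC than LN-BEC (0.32 ± 0.10, edgeR adjusted p = 0.0178), and lost its call in 3 such cases (0.0886 without LN-BEC replicate 1). Sdhb, the iron-sulfur subunit, was at 1364 ± 197 (n = 3) in D-LEC, 1170 ± 184 (n = 3) in LN-BEC and 1134 ± 158 (n = 4) in LN-LEC and was not called.

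In complex III, 2 of 8 subunits were higher in LN-LEC than D-LEC and 1 was higher in LN-LEC than LN-BEC. These were 25% and 12.5% of the complex, against 45.8% and 38.2% of all genes called. Between D-LEC and LN-BEC 0 were called by edgeR or DESeq2, and 0 had an unadjusted edgeR p under 0.05. Without D-LEC replicate 1, Uqcrfs1 was called (edgeR adjusted p = 0.0446). Uqcrq, the small ubiquinone-binding subunit (mm9 chr11:53242450-53244333, minus strand), was at 3308, 3212, 3388 and 3166 in LN-LEC. It was at 2323, 2409 and 2851 in LN-BEC and 2393, 2624 and 2287 in D-LEC, so that LN-LEC stood above both, which overlapped. The log2 difference was 0.45 ± 0.09 against D-LEC (edgeR adjusted p = 0.0011) and 0.39 ± 0.09 against LN-BEC (edgeR adjusted p = 0.00352). Uqcrb was higher in LN-LEC than D-LEC (0.37 ± 0.11, edgeR adjusted p = 0.0135), and lost that call with the length correction (0.175) and without D-LEC replicate 2 (0.0711).

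The 3 core subunits of complex III under the rule were not called in any comparison with all libraries in the fit. They are Uqcrfs1, which carries the Rieske iron-sulfur protein, and Uqcrc1 and Uqcrc2. Uqcrc1 had the lowest level per kilobase of the complex, at 578 in D-LEC, 539.7 in LN-BEC and 559 in LN-LEC. Uqcrh, the hinge protein beside cytochrome c1, had the highest, at 14651 in D-LEC, 14729 in LN-BEC and 13906 in LN-LEC. The 95% interval of LN-LEC minus D-LEC for Uqcrh ran from -0.23 to 0.12 on the log2 scale.

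Complex IV held the widest range of differences, between its broadly expressed subunits and its tissue isoforms. Of 11 broadly expressed subunits, Ndufa4 included, 3 were higher in LN-LEC than D-LEC, and 0 higher in D-LEC by edgeR, by DESeq2 or at an unadjusted edgeR p under 0.05. Against LN-BEC, 5 were higher in LN-LEC and 0 lower, where DESeq2 called 1 and 1 had an unadjusted edgeR p under 0.05. In D-LEC against LN-BEC, 1 was higher in D-LEC (Cox6c, 0.32 ± 0.10, edgeR adjusted p = 0.0154) and 2 higher in LN-BEC (Ndufa4 and Cox5a). Of the 11, 27.3% were called in LN-LEC against D-LEC, 45.5% in LN-LEC against LN-BEC and 27.3% in D-LEC against LN-BEC. Over all genes these shares were 45.8%, 38.2% and 48.1%. The call of Cox5a (-0.32 ± 0.10, edgeR adjusted p = 0.0182) was lost without LN-BEC replicate 3 (0.0704), without D-LEC replicate 3 (0.0734) and without LN-BEC replicate 3 and LN-LEC replicate 4 together (0.0822).

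Ndufa4, first assigned to complex I and now known as a subunit of complex IV (mm9 chr6:11850373-11857446, minus strand), had the largest difference of the 11. It was at 7028, 7237, 7671 and 7106 in LN-LEC, 6067, 5966 and 6677 in LN-BEC, and 3795, 4369 and 4038 in D-LEC. The 3 populations did not overlap. LN-LEC minus D-LEC was 0.86 ± 0.08 (edgeR adjusted p = 1.58e-06) and D-LEC minus LN-BEC was -0.62 ± 0.09 (edgeR adjusted p = 4.92e-05), and both calls held under every alternative. LN-LEC minus LN-BEC was 0.23 ± 0.08 (edgeR adjusted p = 0.0368), and leaving out 1 library ended that call in 5 of 10 cases, with an adjusted p up to 0.122 without LN-BEC replicate 2. Upper-quartile factors and the length correction ended it too (0.0612 with each).

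Cox7a2l, known as a factor that joins complexes III and IV into supercomplexes (mm9 chr17:83901257-83913673, minus strand), was also lowest in D-LEC. Whether Cox7a2l joins them in these mice was not tested. Its level was 2935, 3228 and 3367 in D-LEC, 4362, 3763, 4730 and 4067 in LN-LEC, and 4387, 4864 and 4183 in LN-BEC. LN-LEC minus D-LEC was 0.43 ± 0.10 (edgeR adjusted p = 0.00242) and D-LEC minus LN-BEC was -0.50 ± 0.10 (edgeR adjusted p = 0.00125). Its exons share 38.4% of their 100-base windows with another place in the genome. Cox6c was higher in LN-LEC, at 3144 normalized counts on average, than in LN-BEC, at 2458 (0.37 ± 0.09, edgeR adjusted p = 0.00577). Its higher level in D-LEC lost the call in 3 cases when a library was left out, with an adjusted p of 0.061 without LN-BEC replicate 1.

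Cox6a1, the broadly expressed form of subunit 6a, had the highest level per kilobase of complex IV, at 18422 in D-LEC, 18516 in LN-BEC and 20649 in LN-LEC. Its libraries in LN-LEC did not overlap those of the other populations, but it was not called (edgeR adjusted p = 0.0629 against D-LEC and 0.0952 against LN-BEC). DESeq2 called it in LN-LEC against D-LEC (DESeq2 adjusted p = 0.0321). Cox7b was called in LN-LEC over D-LEC (0.30 ± 0.09, edgeR adjusted p = 0.013) and over LN-BEC (0.25 ± 0.09, 0.0419). These calls were lost without D-LEC replicate 3 (0.0571) and in 5 of 10 cases (up to 0.166, without LN-BEC replicate 1). Cox4i1, the broadly expressed form of subunit 4, was at 8806 in D-LEC, 8228 in LN-BEC and 9606 in LN-LEC. Its difference between LN-LEC and LN-BEC (0.24 ± 0.08, edgeR adjusted p = 0.0337) was lost in 5 cases, up to 0.128 without LN-BEC replicate 1. Cox6b1, Cox7a2 and Cox8a, the broad partners of further isoforms, were not called in the main edgeR test. Their means were 8417, 7923 and 5586 in LN-LEC, 7270.5, 7391 and 4659 in LN-BEC, and 7525, 6774 and 4985 in D-LEC. Some alternatives called them. For LN-LEC against LN-BEC, Cox8a passed without LN-BEC replicate 3 (edgeR adjusted p = 0.00482) and Cox6b1 by DESeq2 (adjusted p = 0.0414). For LN-LEC against D-LEC, Cox7a2 passed without LN-BEC replicate 3 (edgeR adjusted p = 0.023).

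The tissue isoforms of complex IV were scarce in all libraries, yet differed the most. Of 8 isoforms, Cox8c and Cox7b2 were at most at 1.27 normalized counts in any library and were not tested. Of the 6 tested, 5 were higher in D-LEC than LN-LEC (Cox4i2, Cox6a2, Cox6b2, Cox7a1 and Cox8b), and 0 higher in LN-LEC by edgeR, DESeq2 or an unadjusted edgeR p under 0.05. Between D-LEC and LN-BEC, 3 were higher in D-LEC and 1 in LN-BEC, and between LN-LEC and LN-BEC 1 was higher in LN-LEC and 2 in LN-BEC. Of the 6, 83.3% were called in LN-LEC against D-LEC, 50% in LN-LEC against LN-BEC and 66.7% in D-LEC against LN-BEC. Over all genes these shares were 45.8%, 38.2% and 48.1%.

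Cox6a2 is the form of subunit 6a of heart and skeletal muscle (mm9 chr7:135348949-135349880, minus strand). It was at 42.9, 77.1 and 90.9 in D-LEC and 1.75, 0 and 9.45 in LN-BEC. In LN-LEC it had 1 count in replicate 2 and 0 in the other libraries. D-LEC and LN-LEC libraries held 221 and 1 counts, a depth-scaled ratio of 297 with an exact 95% interval of 52.8 to 11800 for counting error alone (edgeR adjusted p = 3.08e-05). D-LEC minus LN-BEC was 4.28 ± 0.80 (edgeR adjusted p = 0.000594). Both calls held under every alternative. Of the exon bases of Cox6a2, 10.5% also lie in Itgad.

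Cox8b and Cox7a1, also forms of heart and skeletal muscle, and of brown fat, were weaker in this contrast. Cox8b was at 29, 57.1 and 64.4 in D-LEC, 11.7, 5.08, 20.4 and 6.29 in LN-LEC, and 16.6, 13.8 and 49.4 in LN-BEC. LN-LEC and D-LEC did not overlap (-2.21 ± 0.56 for LN-LEC minus D-LEC, edgeR adjusted p = 0.00545), and D-LEC and LN-BEC did (0.93 ± 0.57, edgeR adjusted p = 0.197). The overlap of Cox8b rested on LN-BEC replicate 3, without which D-LEC against LN-BEC was called (edgeR adjusted p = 0.0267). Cox7a1 was at 44.1, 47.1 and 56.2 in D-LEC, 19.4, 14, 30.5 and 28.9 in LN-LEC, and 30.6, 33.7 and 41 in LN-BEC. Its difference between LN-LEC and D-LEC, -1.04 ± 0.33 (edgeR adjusted p = 0.0193), was lost without LN-LEC replicate 1 (0.0514) or D-LEC replicate 3 (0.0749).

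Promoters of these muscle forms are printed for comparison with the 2 complex I promoters above, with the same capitals. The Cox7a1 promoter is chr7:30183921-30184220 on the plus strand and holds none of the 6 motifs. The Cox8b promoter is chr7:140900397-140900696 on the minus strand and holds CAGCTG at 2 places.
Cox7a1: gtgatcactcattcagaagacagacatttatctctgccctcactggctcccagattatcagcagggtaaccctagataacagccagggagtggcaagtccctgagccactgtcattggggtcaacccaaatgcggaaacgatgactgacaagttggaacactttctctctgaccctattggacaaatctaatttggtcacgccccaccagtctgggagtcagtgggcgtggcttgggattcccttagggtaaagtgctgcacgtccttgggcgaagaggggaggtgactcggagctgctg
Cox8b: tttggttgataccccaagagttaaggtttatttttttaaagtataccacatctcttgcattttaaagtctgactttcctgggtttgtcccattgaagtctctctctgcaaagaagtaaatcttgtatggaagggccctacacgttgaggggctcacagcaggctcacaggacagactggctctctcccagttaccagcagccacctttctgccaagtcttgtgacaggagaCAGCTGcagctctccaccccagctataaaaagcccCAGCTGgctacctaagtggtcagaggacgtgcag

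Most of 20 skeletal muscle markers were also higher in D-LEC, and the diaphragm is a skeletal muscle. Of these 20, 14 were higher in D-LEC than LN-LEC and 2 lower, and 17 were higher in D-LEC than LN-BEC and 2 lower. Over all genes, 21.7% were higher in D-LEC than LN-LEC and 22.5% higher in D-LEC than LN-BEC. Acta1, the actin of skeletal muscle, was at 476, 535 and 573 in D-LEC and at 0 to 6.05 in the other libraries, and Mb, myoglobin, at 136, 208 and 306 against 0 to 3.89. The summed level of the list was 2423 to 3677 in D-LEC, 3872 to 4650 in LN-LEC and 3194 to 4076 in LN-BEC. Without Ttn, which alone was at 845 in D-LEC, 3178 in LN-BEC and 3678 in LN-LEC on average, it was 1810 to 2800 in D-LEC, 480 to 702 in LN-LEC and 435 to 680 in LN-BEC. In LN-BEC, Myh4 and Myh7 were at 0 in all libraries. The part of muscle RNA in the isoforms' result was not tested.

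**Figure D4:**
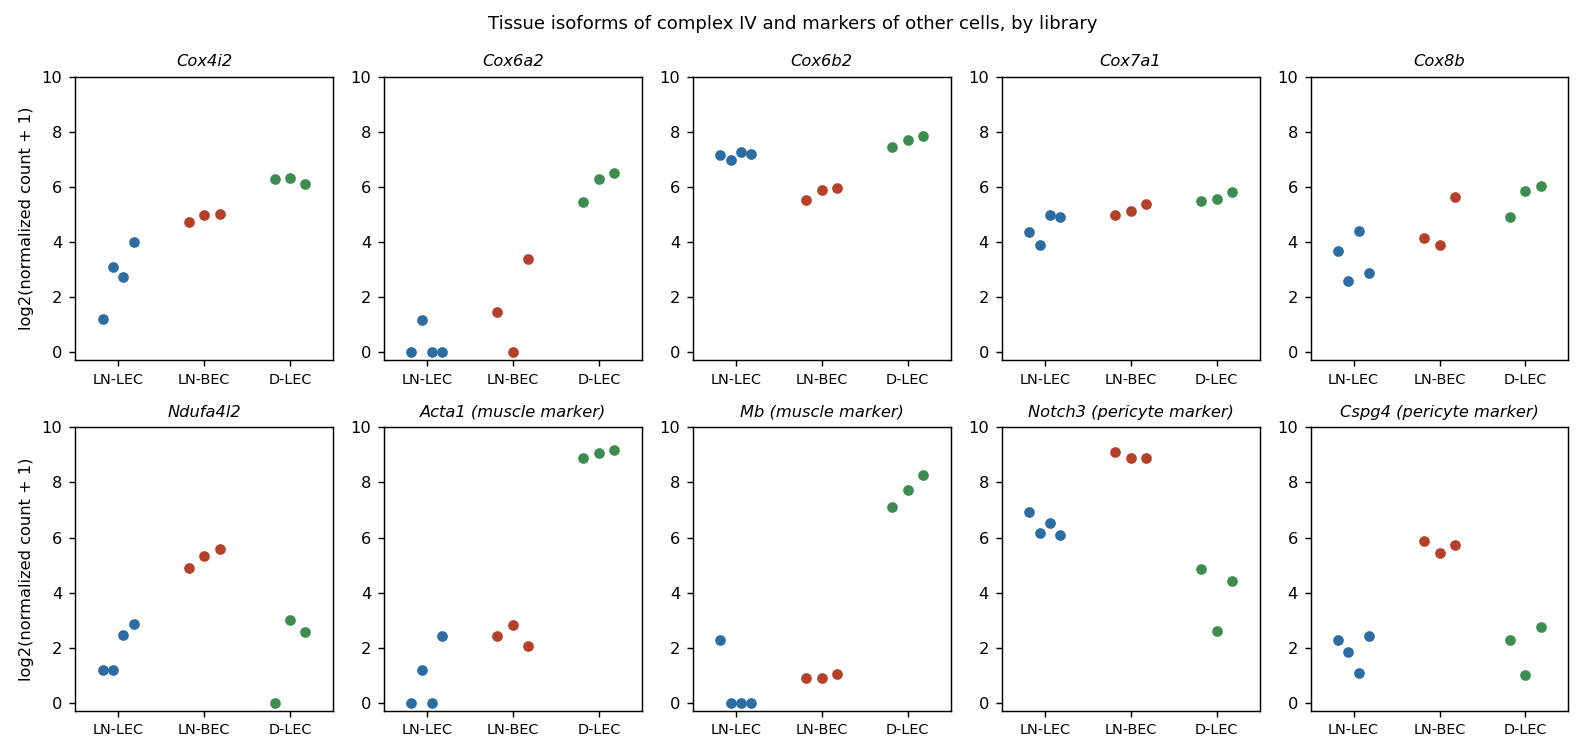
Log2 of the normalized count plus 1 (y axes) in each library for the 6 tested tissue isoforms of complex IV, the muscle markers Acta1 and Mb and the pericyte markers Notch3 and Cspg4. Cox6a2, Acta1 and Mb are higher in all 3 D-LEC libraries than in any other, where Cox6a2 reaches 9.45 normalized counts, Acta1 6.05 and Mb 3.89, and Ndufa4l2, Notch3 and Cspg4 are highest in the 3 LN-BEC libraries.

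Cox4i2, a form of subunit 4 known from lung, vessel walls and low oxygen, was at 78.2, 79.2 and 68.6 in D-LEC, 25.4, 31.1 and 31.5 in LN-BEC, and 1.3, 7.62, 5.65 and 15.1 in LN-LEC. The 3 populations did not overlap. LN-LEC minus D-LEC was -3.19 ± 0.46 (edgeR adjusted p = 7.25e-05) and LN-LEC minus LN-BEC was -1.84 ± 0.47 (edgeR adjusted p = 0.00681). D-LEC minus LN-BEC was 1.35 ± 0.46 (edgeR adjusted p = 0.0263), and that call was lost in 4 cases when a library was left out, with an adjusted p of 0.0766 without LN-BEC replicate 1.

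Cox6b2, the testis form of subunit 6b, was the most abundant of the isoforms. It was at 177, 208 and 234 in D-LEC, 144, 124, 153 and 145 in LN-LEC, and 45.5, 57.9 and 60.9 in LN-BEC. Both lymphatic populations lay above LN-BEC (1.39 ± 0.19 for LN-LEC, edgeR adjusted p = 5.66e-05, and 1.91 ± 0.20 for D-LEC, edgeR adjusted p = 3.29e-06), under every alternative. D-LEC was above LN-LEC (-0.52 ± 0.18 for LN-LEC minus D-LEC, edgeR adjusted p = 0.0291), but not without D-LEC replicate 3 (0.13) and in 3 further cases.

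Ndufa4l2, a form of Ndufa4 that hypoxia-inducible factors raise (mm9 chr10:126951995-126954210, plus strand), was at 28.9, 38.9 and 47.3 in LN-BEC. It was at 1.3, 1.27, 4.52 and 6.29 in LN-LEC and 0, 7.01 and 4.96 in D-LEC, so that LN-BEC stood apart from both lymphatic populations. LN-LEC minus LN-BEC was -3.33 ± 0.67 (edgeR adjusted p = 0.00117) and D-LEC minus LN-BEC -3.16 ± 0.73 (edgeR adjusted p = 0.00279). Markers of pericytes, which also express Ndufa4l2, were present in the same libraries. Of 10 pericyte and smooth muscle markers, 7 were higher in LN-BEC than LN-LEC and 8 higher in LN-BEC than D-LEC, with 1 lower in each. Over all genes, 18.4% were higher in LN-BEC than LN-LEC and 25.6% higher in LN-BEC than D-LEC. The summed level of the 10 markers was 7098 to 8767 in LN-BEC, 4469 to 6703 in LN-LEC and 1905 to 2152 in D-LEC. None of them was at 0 in a whole population. Rgs5 alone was at 4393 in LN-BEC, 3856 in LN-LEC and 66.4 in D-LEC on average. Cspg4 was at means of 50.9 in LN-BEC, 2.99 in LN-LEC and 3.52 in D-LEC. Kcnj8 went the other way, at means of 151 in LN-BEC, 516 in LN-LEC and 840 in D-LEC. Notch3 was at 556, 470.5 and 473 in LN-BEC and 5.01 to 121 elsewhere. Epas1, which encodes the hypoxia-inducible factor HIF-2α, was at 48248 ± 5414 (n = 3) in LN-BEC, 7892 ± 424 (n = 4) in LN-LEC and 11294 ± 629.8 (n = 3) in D-LEC. Hif1a, which encodes HIF-1α, was at 11807 ± 439, 8260 ± 517 and 7345 ± 319 in the same order. A link of either factor to the level of Ndufa4l2 was not tested. Cox4i2, which pericytes also express, was higher in LN-BEC than LN-LEC, as were 7 of the 10 pericyte and smooth muscle markers. Its highest level was in D-LEC, where the sum of those markers was lowest. The part of pericyte RNA in the levels of Ndufa4l2 and Cox4i2 was not tested. Leukocyte markers were also highest in LN-BEC, where 6 of 9 passed against each lymphatic population (summed level 665.9 to 1070 in LN-BEC, 203.5 to 260.1 in LN-LEC and 94.19 to 202.4 in D-LEC). Of 8 adipocyte markers, 4 were higher in LN-BEC than LN-LEC and 5 higher than in D-LEC (summed level 98.59 to 431.7 in LN-BEC, 12.96 to 90.53 in LN-LEC and 4.008 to 13.22 in D-LEC), with Plin1 and Lep at 0 in D-LEC. The 6 fibroblast markers summed to 2062 to 7738 in LN-BEC, 4022 to 7392 in LN-LEC and 2568 to 7686 in D-LEC, ranges that overlapped.

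The isoforms remained a small share of their subunit in all populations. Taken per kilobase, Cox6b2 was 1.93% to 2.65% of Cox6b1 and Cox6b2 together in D-LEC, 1.22% to 1.44% in LN-LEC and 0.582% to 0.67% in LN-BEC. Cox7a1 was 1.32% to 1.8% of its pair in D-LEC, 0.366% to 0.781% in LN-LEC and 0.951% to 1.01% in LN-BEC. Cox8b was at 0.798% to 2.07% and Cox6a2 at 0.332% to 0.765% in D-LEC. The mean share of Cox4i2 was 0.792% in D-LEC, 0.332% in LN-BEC and 0.0747% in LN-LEC, and Ndufa4l2 reached 0.361% in LN-BEC.

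In complex V, 4 of 15 subunits were higher in LN-LEC than D-LEC, and 0 lower by edgeR, by DESeq2 or at an unadjusted edgeR p under 0.05. With the length correction Atp5o, whose mean was lower in LN-LEC, was called (edgeR adjusted p = 0.0195). Against LN-BEC, 0 were higher in LN-LEC, where DESeq2 called 1 and 2 had an unadjusted edgeR p under 0.05, and 1 was lower. In D-LEC against LN-BEC, 2 were higher in LN-BEC and 0 in D-LEC, where DESeq2 called 0 and 1 had an unadjusted edgeR p under 0.05. The catalytic F1 part, formed by Atp5a1, Atp5b, Atp5c1, Atp5d and Atp5e, held 0 of these calls. Atp5e had the highest level per kilobase of the complex, at 19921 in D-LEC, 21930 in LN-BEC and 22179 in LN-LEC. Of the 15 subunits, 26.7% were called in LN-LEC against D-LEC, 6.67% in LN-LEC against LN-BEC and 13.3% in D-LEC against LN-BEC. Over all genes these shares were 45.8%, 38.2% and 48.1%.

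Atp5j, coupling factor 6 of the peripheral stalk (mm9 chr16:84828116-84835819, minus strand), was higher in LN-BEC than in both lymphatic populations. Its level was 3810, 3731 and 4401 in LN-BEC, 3002, 2844, 3335 and 2720 in LN-LEC, and 2798, 2790 and 2698 in D-LEC. LN-LEC minus LN-BEC was -0.40 ± 0.09 (edgeR adjusted p = 0.00251) and D-LEC minus LN-BEC was -0.53 ± 0.10 (edgeR adjusted p = 0.000448). Its exons share 16.2% of their bases with Gabpa, which lies on the same locus.

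Atp5l, subunit g of the membrane part, was lowest in D-LEC, at 294, 371 and 347 against 513, 461, 561 and 484 in LN-LEC and 459, 451 and 473 in LN-BEC. LN-LEC minus D-LEC was 0.60 ± 0.11 (edgeR adjusted p = 0.000698) and D-LEC minus LN-BEC -0.45 ± 0.12 (edgeR adjusted p = 0.00719). Another exact copy exists for 74.5% of its 100-base exon windows, so that its level is uncertain. Atp5k, Atp5j2 and Atp5g3 made up the other calls of LN-LEC over D-LEC (0.30 ± 0.10, 0.22 ± 0.08 and 0.26 ± 0.10, edgeR adjusted p = 0.0311, 0.0397 and 0.0396). All 3 lost the call with the length correction (0.161, 0.485 and 0.152) and in 4 to 6 cases when a library was left out (up to 0.0997, 0.125 and 0.0925, each without D-LEC replicate 3).

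Subunit c, which forms the rotor ring, is encoded by Atp5g1, Atp5g2 and Atp5g3, whose mature protein is the same. Atp5g3 was at 8145 ± 139.5 (n = 3) in D-LEC, 8194 ± 1086 (n = 3) in LN-BEC and 9609 ± 689 (n = 4) in LN-LEC. Atp5g1 was at 704 ± 71.4 in D-LEC, 636 ± 124 in LN-BEC and 615 ± 25.5 in LN-LEC. Atp5g2 was at 80.3 ± 8.75, 91.8 ± 15.8 and 87.4 ± 8.92 in the same order, and neither was called in the main edgeR test. Without both LN-BEC replicate 3 and LN-LEC replicate 4, Atp5g1 was called in D-LEC against LN-BEC (edgeR adjusted p = 0.0393). Per kilobase the order was Atp5g3, Atp5g1, Atp5g2 in every population. The order carries a limit of the counting, since 100% of the 100-base exon windows of Atp5g2 and 55.2% of those of Atp5g1 have another exact copy in the genome.

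The last 120 bases of the 3 coding sequences, from the mm9 transcript set, show how alike these genes are where they encode the mature protein. Capitals mark the 31 positions at which the 3 differ. Over these bases Atp5g1 and Atp5g2 were 86.7% identical, Atp5g1 and Atp5g3 81.7%, and Atp5g2 and Atp5g3 76.7%.
Atp5g1: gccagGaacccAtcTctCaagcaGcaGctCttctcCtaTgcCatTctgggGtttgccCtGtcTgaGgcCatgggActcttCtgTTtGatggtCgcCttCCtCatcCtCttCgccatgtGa
Atp5g2: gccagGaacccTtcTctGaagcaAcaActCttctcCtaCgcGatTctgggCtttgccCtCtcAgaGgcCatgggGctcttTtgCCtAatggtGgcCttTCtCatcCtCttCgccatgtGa
Atp5g3: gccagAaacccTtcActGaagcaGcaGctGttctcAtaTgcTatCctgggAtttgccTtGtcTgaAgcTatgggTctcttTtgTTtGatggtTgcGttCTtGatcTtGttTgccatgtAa

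Of the 3 rows that are no subunit, Cox4nb had the clearest difference. Cox4nb, now named Emc8, a part of the membrane protein complex of the endoplasmic reticulum, was at 1693, 1616 and 1640 in D-LEC, 1436, 1296, 1315 and 1331 in LN-LEC, and 1154, 1123 and 1045 in LN-BEC. The populations did not overlap, and all 3 of its differences were called under every alternative (-0.27 ± 0.08 for LN-LEC minus D-LEC, 0.30 ± 0.08 for LN-LEC minus LN-BEC and 0.57 ± 0.08 for D-LEC minus LN-BEC, edgeR adjusted p = 0.00958, 0.00758 and 6.06e-05). Atp5sl was higher in D-LEC than LN-LEC (-0.45 ± 0.13 for LN-LEC minus D-LEC, edgeR adjusted p = 0.0113, and 0.0572 without D-LEC replicate 3). Atp5s was higher in D-LEC than LN-BEC (0.45 ± 0.13, edgeR adjusted p = 0.00956, and 0.0519 without D-LEC replicate 3).

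Genes around the chain were counted in the same way. Over all genes, 45.8% were called in LN-LEC against D-LEC, 38.2% in LN-LEC against LN-BEC and 48.1% in D-LEC against LN-BEC. Of 16 genes of the tricarboxylic acid cycle, which delivers NADH and succinate, 10 were higher in D-LEC than LN-BEC and 1 lower, with a median log2 difference of 0.30 against -0.05 over all genes. Against LN-LEC, 6 were higher in D-LEC and 2 lower, and 3 were higher in LN-LEC than LN-BEC. The shares of these genes called were 50% in LN-LEC against D-LEC, 18.8% in LN-LEC against LN-BEC and 68.8% in D-LEC against LN-BEC. Idh2, which makes NADPH in the matrix, was at 844, 659 and 1017 in LN-BEC, 1675, 1474, 1770 and 1758 in LN-LEC, and 1965, 1375 and 1642 in D-LEC. Both lymphatic populations stood above LN-BEC (1.01 ± 0.15, edgeR adjusted p = 9.95e-05, and 0.98 ± 0.16, edgeR adjusted p = 0.000166). Idh3a, the catalytic subunit of the NAD-linked enzyme, was higher in D-LEC than LN-BEC (0.69 ± 0.14, edgeR adjusted p = 0.00124).

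Among 16 electron carriers and other chain genes outside the rule, 3 were higher in D-LEC than LN-LEC and 1 lower, 5 higher in LN-LEC than LN-BEC, and 6 higher in D-LEC than LN-BEC and 2 lower. In the same order, 25%, 31.2% and 50% of this list were called, against 45.8%, 38.2% and 48.1% of all genes. Coq7, a hydroxylase of ubiquinone synthesis, was at 589, 561 and 630.4 in D-LEC, 346, 404, 427 and 453 in LN-LEC, and 174, 161 and 254 in LN-BEC, with no overlap. Etfa, which passes electrons from fatty acid oxidation, was at 2249 ± 66.2 (n = 3) in D-LEC, 1629 ± 121 (n = 4) in LN-LEC and 1230 ± 187 (n = 3) in LN-BEC. Etfdh, the next enzyme on that path, went the other way, at 443 ± 68.4 in D-LEC, 657 ± 65.3 in LN-LEC and 691 ± 72.9 in LN-BEC. D-LEC minus LN-BEC was 0.87 ± 0.11 for Etfa and -0.64 ± 0.14 for Etfdh (edgeR adjusted p = 1.67e-05 and 0.00153). Cycs, cytochrome c, was higher in D-LEC than LN-LEC (-0.69 ± 0.19 for LN-LEC minus D-LEC, edgeR adjusted p = 0.00905).

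Of 20 tested assembly factors of complexes II to V, 3 were called in LN-LEC against D-LEC, 4 in LN-LEC against LN-BEC and 5 in D-LEC against LN-BEC. These were 15%, 20% and 25% of the list, each below the share of all genes (45.8%, 38.2% and 48.1%). Atpaf2, which assembles the F1 part of complex V, was lower in LN-BEC, at 518 ± 29.2 (n = 3), than in LN-LEC, at 770.0 ± 106 (n = 4), and D-LEC, at 911 ± 24.5 (n = 3). The differences were 0.59 ± 0.11 and 0.81 ± 0.12 (edgeR adjusted p = 0.000747 and 6.49e-05). Of 73 mitochondrial ribosomal proteins, 17 were higher in LN-LEC than D-LEC and 3 lower, 12 higher in LN-LEC than LN-BEC and 2 lower, and 9 higher in D-LEC than LN-BEC and 13 lower. In the same order, 27.4%, 19.2% and 30.1% of this list were called. Of 82 tested cytosolic ribosomal proteins, 27 were higher in LN-LEC than D-LEC and 3 lower, 21 higher in LN-BEC than LN-LEC and 2 lower, and 48 higher in LN-BEC than D-LEC and 1 lower. Their shares called were 36.6%, 28% and 59.8%.

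Of 17 regulators of mitochondrial genes, 3 were called in LN-LEC against D-LEC, 7 in LN-LEC against LN-BEC and 6 in D-LEC against LN-BEC. These were 17.6%, 41.2% and 35.3% of the list, against 45.8%, 38.2% and 48.1% of all genes. Ppargc1b, a coactivator of nuclear respiratory factors and estrogen-related receptors, was at 189, 209, 219 and 134 in LN-LEC, 111, 122 and 135 in D-LEC, and 30.6, 34.6 and 46.2 in LN-BEC. LN-BEC lay below both (2.35 ± 0.24 for LN-LEC minus LN-BEC and 1.72 ± 0.25 for D-LEC minus LN-BEC, edgeR adjusted p = 2.87e-06 and 5.98e-05). Esrrg, an estrogen-related receptor, showed the reverse, at 344, 446 and 332 in LN-BEC, 55.7, 91.4, 43 and 61 in LN-LEC, and 18.9, 6.01 and 21.5 in D-LEC. LN-LEC minus LN-BEC was -2.56 ± 0.30 and D-LEC minus LN-BEC -4.59 ± 0.38 (edgeR adjusted p = 1.22e-05 and 3.28e-07). Tfam, which packs and transcribes mitochondrial DNA, was lower in both lymphatic populations than in LN-BEC (-0.53 ± 0.09 and -0.50 ± 0.09, edgeR adjusted p = 0.000226 and 0.000572).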

How the data were processed

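RNA libraries of LN-LEC (n = 4), LN-BEC (n = 3) and D-LEC (n = 3) were analysed, grouped by the source label. Per the file headers and the study's methods, the authors aligned trimmed read pairs to mm9 with STAR and counted fragments per gene symbol with featureCounts version 1.4.4, without regard to strand. The deposited values are raw counts. A further deposited column, exon length, served to give levels per kilobase. The 3833 rows with predicted, clone or other unnamed symbols were left out, and 15321 genes whose mean normalized count reached 1 in some population were tested. The test was edgeR 4.0.16 in R 4.3.3 (TMM factors, a robust quasi-likelihood model with a mean for each population, fitted over all 10 libraries, Benjamini-Hochberg adjustment, threshold 0.05). Standard errors are the log2 difference over the root of its F statistic, and intervals are 1.96 standard errors wide on each side.

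Normalized counts used DESeq2 1.42.0 size factors. Libraries held 22429940 to 48906070 fragments, at which 3 counts correspond to 0.0613 to 0.134 CPM. Libraries of one population differed by more than counting error (chi-square test over genes), so none were merged. On simulated data for LN-LEC vs D-LEC with 15321 genes, changes of 1.2-, 1.5-, 2- and 4-fold were recovered in 4%, 44%, 90% and 94% of 50 genes each. Only these genes were changed in the simulation, while 45.8% of all genes were called in this comparison of the data. The adjusted p depends on that share, so these rates do not measure recovery in the data. Copies of exon windows (100 bases) were counted in the mm9 genome with Python 3.11.15. Fragments shared by genes or mapped to several places were not counted by the authors.

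The members and gene lists were chosen with earlier results of these data known. Genes named are all isoforms, complex II, subunit c, the 3 largest called differences per complex and comparison, the extremes per kilobase, untested members and the 2 largest called differences of each other list, and further members by role. Of the other lists only part of the genes chosen in this way are given, and Tfam was picked after its values were seen. Alternatives were another test, 2 other normalizations, other filters, a gene-length correction, pairwise fits and leaving out libraries. The values of 1 member are not reported here.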

Additional observations from a re-analysis of the deposited data

Results flagged for a closer look

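Among the 4 LN-LEC libraries, 1 library lay far from the others in 6 of the 87 members tested, by a gap above Dixon's limit at the 95% level. Chance alone flags about 1 in 20 such groups. Ndufb10, a membrane-arm subunit of complex I, was at 2728 normalized counts in replicate 3 against 2229 to 2237 in the others. Atp5j2 was at 6494 in replicate 3 against 5924 to 6004. Ndufv1 was at 983 in replicate 4 against 872 to 889.9, which lies nearer to the D-LEC libraries. Ndufaf1 was at 371 in replicate 4 against 286 to 299.6. Ndufc1 was at 1370 in replicate 1 against 1438 to 1452. Cox6a2 was at 1.27 in replicate 2, from 1 count, against 0 in the others. With the other libraries at 0 any single count meets the limit, so this case is no sign of an unusual library. The flagged libraries were replicate 1 for 1 member, replicate 2 for 1, replicate 3 for 2 and replicate 4 for 2.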

How the results depend on the processing

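No paired analysis was possible because the labels give no replicate number, day or animal that links libraries of different populations. No called difference of a named gene changed its direction under any alternative. Of the called members, 20 of 34 (LN-LEC vs D-LEC), 12 of 24 (LN-LEC vs LN-BEC) and 16 of 25 (D-LEC vs LN-BEC) kept their call under every alternative. In the same order, 10, 16 and 9 members without a call in the main edgeR test were called under some alternative. With libraries left out singly, the members called were 23 to 36, 14 to 29 and 19 to 27 in these comparisons. Those higher in LN-LEC than D-LEC were 17 to 25, and those higher in D-LEC 6 to 11. Those higher in LN-LEC than LN-BEC were 10 to 25, and those higher in LN-BEC 4 to 5. Those higher in D-LEC than LN-BEC were 8 to 17, and those higher in LN-BEC 10 to 12. The median log2 difference of the subunits, 0.14, 0.12 and 0.01, then ran from 0.10 to 0.17, from 0.09 to 0.17 and from -0.03 to 0.06. With the gene-length correction the first of these medians was 0.03 and the members higher in LN-BEC than LN-LEC were 7, and the cause was not tested. Without both LN-BEC replicate 3 and LN-LEC replicate 4, an alternative chosen after seeing the data, 33, 31 and 30 members were called, and the medians against LN-BEC were 0.20 for LN-LEC and 0.09 for D-LEC. The sum of muscle markers without Ttn was also chosen after seeing the data. The isoforms rest on few counts, which limits the precision of their differences.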
